A study of Mus musculus with 10 samples.

Results

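The 45 genes described here encode proteins of the lysosome and of autophagy: acid hydrolases, lysosomal membrane proteins, subunits of the proton pump, the MiT/TFE transcription factors, and a cargo receptor and a membrane marker of autophagy. They were taken by name from the deposited count table, which lists 48795 genes. All 45 were found, and all 45 were among the 12859 genes that passed the filter on low counts. They were grouped by role into 8 proteases, 13 hydrolases of glycans and sulfated sugars, 7 proteins of lipid handling with the saposin and progranulin precursors, 8 membrane proteins, 4 V-ATPase subunits, 3 MiT/TFE factors, and the autophagy genes Sqstm1 and Map1lc3b.

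The RNA was from cultured NSC/NPCs, that is neural stem cells and the progenitors they give rise to, taken from the subependymal zone of mice aged 10 weeks. Proliferating cells (PRO) were floating neurospheres, collected at 3 DIV in medium with EGF at 20 ng/ml and FGF at 10 ng/ml. Differentiating cells (DIFF) were attached to Matrigel for 2 DIV in medium with FGF, then deprived of mitogens and given 2% fetal bovine serum, and they were collected 24 h later (2 + 1 DIV). Mitogen withdrawal, attachment and serum thus changed together and cannot be told apart. Each stage had 3 wild-type (WT) libraries and 2 libraries with the Cdkn1b (p27KO) genotype, from a mutant line kept on a C57BL/6J background that lacks the cell cycle inhibitor p27. The methods call them biological replicates without saying what separates them, so p-values measure the spread between these libraries.

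The free-text descriptions of the p27KO samples name WT cells, against their titles and genotype field. The targeted gene Cdkn1b (ENSMUSG00000003031, chromosome 6, 134920401 to 134925513 on GRCm38) had 103, 105 and 112 CPM (counts divided by the library total and multiplied by 1000000) in WT PRO, 206, 205 and 209 CPM in WT DIFF, 114 and 90.7 CPM in p27KO PRO and 140.2 and 137 CPM in p27KO DIFF. Its counts were not lost, but they were lower in p27KO DIFF than in WT DIFF. The log2 fold change was -0.56 there (standard error 0.09, edgeR adjusted p = 0.012) and -0.03 in PRO (standard error 0.09). The samples are therefore referred to as libraries labelled p27KO, and each genotype difference rests on the labels. Genotype also coincided with sex: Xist ranged from 2260 to 3590 CPM in the libraries labelled p27KO and from 1.16 to 2.57 CPM in WT, which matters for the 5 members on the X chromosome (Gla, Ids, Lamp2, Atp6ap1 and Tfe3). Library totals ranged from 19190068 to 25291674 counts. Of 13 microglial and macrophage markers, a cell type rich in lysosomes, each was under 1 CPM in every library, 5 (Tyrobp, C1qa, C1qb, C1qc and Trem2) had 0 counts in all 10, and the summed level was at most 0.836 CPM. The 8 markers of neural stem and progenitor cells were present in every library, at summed levels from 5370 to 7440 CPM.

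Lysosomes are acidified by the V-ATPase and break down material that reaches them by endocytosis or in autophagosomes. Most of their hydrolases are made as precursors and sorted by sugar tags, and loss of a single hydrolase causes a storage disease, many of which strike the brain. In adult neural stem cells, lysosomes are known for clearing protein aggregates and activated growth factor receptors, and quiescent cells are known to hold more lysosomal content than dividing ones. TFEB, TFE3 and MITF bind an E-box called the CLEAR element in the promoters of many lysosomal genes. When growth factors and amino acids are plentiful, the kinase mTORC1 phosphorylates TFEB and TFE3 at the lysosome and holds them in the cytoplasm.

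The promoters of the members were searched first for the letters through which these factors are known to act. Of the 45 members, 39 matched an entry in the RefSeq promoter table of GRCm38.p6 (300 bases, from 250 before to 50 after each annotated start), with 47 promoters in all. The letters TCACGTGA, the core of the CLEAR element, were searched as exact matches on both strands. They occurred in promoters of 7 members (14.9% of the members' promoters), namely Ctsa, Ctsd, Atp6v0d1, Atp6v1a, Cln3, Gla and Mcoln1, against 0.974% of all 32851 promoters and 1.86% of those of tested genes. The shorter TCACGTG, which includes every TCACGTGA, was found for 12 members and in 3.77% of all promoters, and the E-box CACGTG, which includes both, for 14 members and in 7.15% of all promoters. Stretches of 60 bases are shown for the 7 members with the full core, together with the promoters of Glb1, which has only TCACGTG, and of Ctsl, the member that rose most, which has only the E-box. Each is read 5′ to 3′ on the strand of its gene, with the match in capitals:
Ctsa (chr2:164833734-164833793, plus strand): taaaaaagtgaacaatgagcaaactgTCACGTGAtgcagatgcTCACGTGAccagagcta
Ctsd (chr7:142387893-142387952, minus strand): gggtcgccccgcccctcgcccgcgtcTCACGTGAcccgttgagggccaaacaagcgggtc
Atp6v0d1 (chr8:105566035-105566094, minus strand): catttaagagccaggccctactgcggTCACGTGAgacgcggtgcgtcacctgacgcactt
Atp6v1a (chr16:44139358-44139417, minus strand): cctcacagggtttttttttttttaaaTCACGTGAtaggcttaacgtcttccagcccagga
Cln3 (chr7:126583325-126583384, minus strand): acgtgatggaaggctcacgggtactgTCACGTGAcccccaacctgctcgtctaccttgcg
Mcoln1 (chr8:3500447-3500506, plus strand): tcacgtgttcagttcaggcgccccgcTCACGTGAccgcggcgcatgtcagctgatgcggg
Gla (chrX:134601196-134601255, minus strand): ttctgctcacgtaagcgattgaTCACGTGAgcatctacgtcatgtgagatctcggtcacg
Glb1 (chr9:114401002-114401061, plus strand): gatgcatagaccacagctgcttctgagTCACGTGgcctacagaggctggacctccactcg
Ctsl (chr13:64370711-64370770, minus strand): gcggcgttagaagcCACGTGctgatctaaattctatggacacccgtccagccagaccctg
The promoter of Ctsa holds 2 copies of the core within this stretch, the first 13 bases before the start, and that of Gla holds 2 in its 300 bases. The cores begin 4 bases before the start in Atp6v0d1, 46 in Mcoln1, 99 in Ctsd, 122 in Cln3, 132 in Atp6v1a and 228 in the copy shown for Gla. A match is a description of the letters in these windows and says nothing on binding, and a promoter without one says only that the letters are not in that window.

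Levels were compared between genes as mean CPM per kilobase of exon. In WT PRO the members spanned from 249 for Psap, the precursor of the saposins, down to 0.786 for Mitf. After Psap came Lamp1 at 198, Laptm4a at 171 and Ctsd, the main aspartic protease of the lysosome, at 105 CPM per kilobase. At the low end stood the transcription factors Mitf and Tfeb (0.961), and Ctsh (1.46). All members together took 0.463 to 0.546% of the counts in WT PRO, 0.644 to 0.689% in WT DIFF, 0.465 to 0.474% in p27KO PRO and 0.565 to 0.585% in p27KO DIFF. The summed share was thus higher in every DIFF library than in every PRO library, and in DIFF it was higher in each WT library than in both labelled p27KO. These counts are relative, so that a change in total RNA per cell or in the make-up of the culture cannot be told from a change in the gene.

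**Figure D1:**
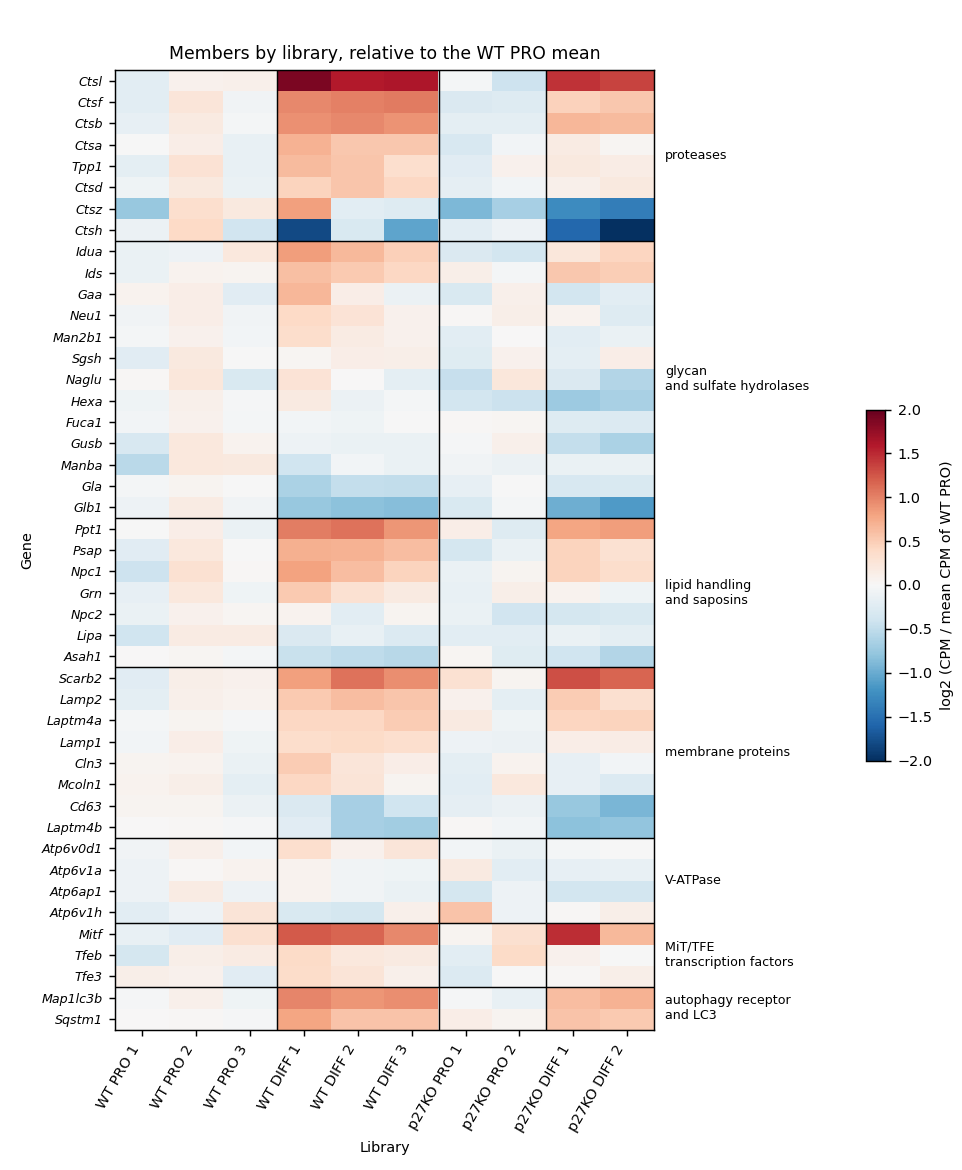
Level of the 45 members (rows, grouped by role and ordered by the WT change) in each of the 10 libraries (columns), as log2 of CPM over the mean CPM of WT PRO; the colour scale runs from -2 to 2. Ctsl is high in all 5 DIFF libraries, Glb1, Cd63 and Laptm4b are low there, and most glycan hydrolases and V-ATPase subunits stay pale.

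The first comparison asked what happened to these genes at the onset of differentiation in WT cells. Of the 45 members, 20 were UP and 6 were DOWN at 2 + 1 DIV, which means that the quasi-likelihood test of edgeR gave a p below 0.05 after Benjamini-Hochberg adjustment across the whole table. Among all genes tested, 33.5% were UP and 33.9% were DOWN, so the members were UP in a larger share (44.4%) and DOWN in a smaller one (13.3%). Their median log2 fold change was 0.24, against -0.0019 over all genes. The rises were moderate, up to 1.69 on the log2 scale, and the falls reached -0.93. Proteases and the autophagy pair rose most often, while the glycan hydrolases and the V-ATPase gave few calls. With each library left out in turn, 18 to 20 members were UP and 5 to 7 DOWN. Of the 20 UP members, 18 passed under every alternative tried, and of the 6 DOWN members, 5 did.

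Among the proteases, 6 of 8 were UP and 1 was DOWN in WT. Ctsl (ENSMUSG00000021477, chromosome 13, 64359337 to 64370890), which encodes the cysteine protease cathepsin L, had 47.3, 58.6 and 59.1 CPM in the WT PRO libraries and 203, 165 and 169 CPM in WT DIFF. The libraries labelled p27KO gave 53.4 and 41.2 CPM in PRO and 150.0 and 139.9 CPM in DIFF. Every DIFF library lay above every PRO library, with log2 fold changes of 1.69 (standard error 0.12, edgeR adjusted p = 2.11e-06) in WT and 1.59 (standard error 0.15, edgeR adjusted p = 2.39e-05) in the libraries labelled p27KO.

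Ctsf (ENSMUSG00000083282, chromosome 19, 4855130 to 4860918), another cysteine cathepsin, went from 18.3, 25.1 and 20.3 CPM in WT PRO to 41.4, 42.6 and 43.5 CPM in WT DIFF, and from 17.4 and 17.7 to 29.1 and 30.7 CPM in the libraries labelled p27KO. The stages did not overlap in either genotype, and the log2 fold changes were 0.99 and 0.74 (standard errors 0.11 and 0.14). Ctsb rose by 0.92 and 0.82 on the same scale. Its exons overlap those of Fdft1 on the other strand, whose log2 fold change in WT was -1.69. Tpp1, a tripeptidyl peptidase mutated in a childhood lipofuscinosis, rose by 0.50 in WT (standard error 0.14).

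The protease genes with the CLEAR core were UP in WT as well. Ctsa (ENSMUSG00000017760, chromosome 2, 164832873 to 164841032), which encodes the carboxypeptidase that protects beta-galactosidase and neuraminidase in a complex, had 63.9, 70.2 and 58.1 CPM in WT PRO and 104, 93.1 and 93.0 CPM in WT DIFF, a log2 fold change of 0.58 (standard error 0.10, edgeR adjusted p = 0.000682). Ctsd (ENSMUSG00000007891, chromosome 7, 142375911 to 142388038) had 233, 282 and 226 CPM in PRO and 337, 364 and 330.0 CPM in DIFF, a log2 fold change of 0.47 (standard error 0.10). Neither gene overlapped between the WT stages. Ctsd overlaps the annotated gene Gm49369 on its own strand, and their counts may be shared.

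Ctsh (ENSMUSG00000032359, chromosome 9, 90054152 to 90076089), an aminopeptidase among the cathepsins, was the protease that fell. It had 6.04, 8.66 and 5.03 CPM in WT PRO, 1.88, 5.3 and 3.16 CPM in WT DIFF, 5.66 and 6.15 CPM in p27KO PRO and 2.22 and 1.53 CPM in p27KO DIFF. The WT stages overlapped, since replicate 2 of WT DIFF stood above replicate 3 of WT PRO, and the log2 fold change of -0.93 (standard error 0.36, edgeR adjusted p = 0.0409) was near the threshold. The call was lost without any one of replicates 1 or 2 of WT PRO (-0.98 and -0.68), replicates 1 or 3 of WT DIFF (-0.61 and -0.85) or either p27KO PRO library (-0.93 in both cases), and with only the WT groups in the fit. Ctsz, the other protease, moved by 0.19 with a standard error of 0.33 and did not pass.

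The 13 glycan and sulfate hydrolases gave 2 UP and 2 DOWN genes in WT, with a median log2 fold change of 0.03. Both UP genes encode enzymes that act in turn on the iduronic acid units of dermatan and heparan sulfate. Idua (ENSMUSG00000033540, chromosome 5, 108660331 to 108684557) had 10.5, 10.8 and 13.4 CPM in WT PRO and 20.7, 18.0 and 16.1 CPM in WT DIFF, with no overlap and a log2 fold change of 0.65 (standard error 0.14, edgeR adjusted p = 0.00195). It overlaps Dgkq and Slc26a1 on the other strand, whose own counts rose in WT by 0.32 and 0.98. Ids (ENSMUSG00000035847, chromosome X, 70343069 to 70365084) went from 88.1, 102 and 101 CPM to 147, 139.8 and 129 CPM, again without overlap, a log2 fold change of 0.51 (standard error 0.08).

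Glb1 and Gla, the beta- and alpha-galactosidases, fell. Glb1 (ENSMUSG00000045594, chromosome 9, 114401076 to 114474898) had 51.2, 61.8 and 52.4 CPM in WT PRO, 32.7, 31.1 and 30.5 CPM in WT DIFF, 44.5 and 53.6 CPM in p27KO PRO and 28.1 and 25.1 CPM in p27KO DIFF. Its stages did not overlap in either genotype, with log2 fold changes of -0.82 and -0.91 (standard errors 0.11 and 0.13, edgeR adjusted p = 9.88e-05 and 0.000318). Glb1 shares exon bases with Tmppe on the same strand, which fell by -0.70 in WT. Gla (ENSMUSG00000031266, chromosome X, 134588149 to 134601125) went from 10.4, 11.1 and 10.7 CPM in WT PRO to 6.97, 7.75 and 7.63 CPM in WT DIFF, a fall without overlap at a log2 fold change of -0.54 (standard error 0.11). Gla carries the CLEAR core shown above and Glb1 the shorter TCACGTG. In p27KO, Gla had 9.63 and 10.7 CPM in PRO and 8.64 and 8.72 CPM in DIFF, a log2 fold change of -0.25 that did not pass the test.

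The other 9 of these hydrolases were not called in WT, with log2 fold changes from -0.20 to 0.26. They were Gaa, the acid alpha-glucosidase, Hexa, the alpha subunit of beta-hexosaminidase, Gusb, Naglu, Sgsh, Neu1, Man2b1, Manba and Fuca1. Gaa ranged from 65.6 to 113.7 CPM over the WT DIFF libraries alone, which was wider than its difference between stages.

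Genes of lipid handling gave 4 UP and 1 DOWN members in WT. Ppt1 (ENSMUSG00000028657, chromosome 4, 122836242 to 122859175), which removes palmitate from proteins, had 76.1, 83.5 and 69.6 CPM in WT PRO, 155, 163 and 141 CPM in WT DIFF, 84.1 and 64.0 CPM in p27KO PRO and 132 and 136 CPM in p27KO DIFF. It rose without overlap, by log2 fold changes of 0.99 in WT and 0.83 in the libraries labelled p27KO (standard errors 0.11 and 0.13). Psap (ENSMUSG00000004207, chromosome 10, 60277627 to 60302597), the most abundant member, had 583, 789 and 677 CPM in WT PRO and 1124, 1101 and 1050.0 CPM in WT DIFF, and 538 and 626 CPM in p27KO PRO and 933 and 842 CPM in p27KO DIFF. Its rise of 0.67 in WT (standard error 0.12, edgeR adjusted p = 0.000712) also came without overlap. Npc1, the membrane transporter that moves cholesterol out of the lysosome, rose by 0.62, while its soluble partner Npc2 moved by -0.04 and did not pass.

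Asah1 (ENSMUSG00000031591, chromosome 8, 41340197 to 41374773), the acid ceramidase, was the member of this group that fell, from 186, 191 and 180.3 CPM in WT PRO to 136, 131 and 126 CPM in WT DIFF and from 190.3 and 157 to 141 and 125 CPM in the libraries labelled p27KO. Neither genotype showed overlap between stages, and the log2 fold changes were -0.51 and -0.41 (standard errors 0.09 and 0.10). Grn, the precursor of the granulins, was UP by 0.33 with an edgeR adjusted p of 0.0485, a call lost with the replicate block (adjusted p = 0.0614), with looser filters and without any one of replicates 1 or 3 of WT PRO, 1 or 2 of WT DIFF or either p27KO DIFF library (log2 fold changes from 0.26 to 0.33). Lipa, the lysosomal acid lipase, had a log2 fold change of -0.25 that did not pass, except without replicate 1 of WT PRO (-0.41).

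Among the 8 membrane proteins, 4 were UP and 2 were DOWN in WT. Scarb2 (ENSMUSG00000029426, chromosome 5, 92441314 to 92506833), also called LIMP-2, carries glucocerebrosidase to the lysosome. It had 126, 162 and 157 CPM in WT PRO, 261, 314 and 283 CPM in WT DIFF, 183 and 154 CPM in p27KO PRO and 364 and 334 CPM in p27KO DIFF. All DIFF libraries exceeded all PRO libraries, with log2 fold changes of 0.94 in WT and 1.03 in the libraries labelled p27KO (standard errors 0.12 and 0.15). Lamp2 (ENSMUSG00000016534, chromosome X, 38401357 to 38456454), which encodes a major glycoprotein of the lysosomal membrane and, as LAMP2A, the receptor of chaperone-mediated autophagy, went from 237, 290.5 and 282 CPM to 389, 412 and 396 CPM in WT, a log2 fold change of 0.56 (standard error 0.10). Lamp1 and Laptm4a rose by 0.35 and 0.43.

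Cd63 and Laptm4b moved the other way. Laptm4b (ENSMUSG00000022257, chromosome 15, 34238028 to 34284302), known for its role in the traffic of the EGF receptor and in amino acid signalling at the lysosome, had 123, 125 and 121 CPM in WT PRO and 105, 77.4 and 76.0 CPM in WT DIFF, and 125 and 119 CPM in p27KO PRO and 69.4 and 71.3 CPM in p27KO DIFF. Cd63 (ENSMUSG00000025351, chromosome 10, 128900989 to 128912822), a tetraspanin of late endosomes and exosomes, had 295, 292 and 260.3 CPM in WT PRO and 232, 178 and 214 CPM in WT DIFF, and 249 and 260.1 CPM in p27KO PRO and 167 and 150.5 CPM in p27KO DIFF. Both fell without overlap between stages in either genotype, Laptm4b by log2 fold changes of -0.53 and -0.82 and Cd63 by -0.46 and -0.71. Mcoln1, a calcium channel that feeds back on TFEB, and Cln3, mutated in juvenile Batten disease, both carry the CLEAR core and were not called in WT. Mcoln1 had 34.9, 36.1 and 29.0 CPM in WT PRO and 44.3, 40.0 and 34.7 CPM in WT DIFF, which overlapped. Cln3 had 11.6, 11.7 and 10.2 CPM and 15.9, 13.2 and 12.2 CPM, which did not overlap, and its log2 fold change of 0.29 missed the threshold (edgeR adjusted p = 0.0841), except without replicate 3 of WT DIFF (0.38).

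The V-ATPase subunits changed least. Atp6v0d1 (ENSMUSG00000013160, chromosome 8, 105524465 to 105566047), a subunit of the membrane sector, had 88.2, 99.5 and 89.4 CPM in WT PRO, 116, 98.3 and 109 CPM in WT DIFF, 89.0 and 84.5 CPM in p27KO PRO and 90.2 and 91.8 CPM in p27KO DIFF. The WT stages overlapped, and the log2 fold change of 0.21 (standard error 0.08, edgeR adjusted p = 0.0295) was not called with the replicate block (adjusted p = 0.0564), nor with the p27KO numbers crossed (adjusted p = 0.0571), nor with only the WT groups in the fit (adjusted p = 0.0521). It was 0.13 (adjusted p = 0.328) without the filter on low counts and 0.17 (adjusted p = 0.0696) with the looser filter, and it was also lost without any one of replicates 1 or 3 of WT PRO or 1 or 3 of WT DIFF (0.18 to 0.21). Atp6v1a, the catalytic subunit, had 174, 190.1 and 198 CPM in WT PRO and 196, 178 and 176 CPM in WT DIFF. Its log2 fold change was -0.04 (standard error 0.10), and those of Atp6ap1 and Atp6v1h were -0.05 and -0.18, none of them past the test.

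Of the MiT/TFE factors, Mitf alone was UP in WT. Mitf (ENSMUSG00000035158, chromosome 6, 97807052 to 98021349) had 4.38, 4.15 and 6.09 CPM in WT PRO and 11.3, 10.9 and 9.49 CPM in WT DIFF, with no overlap and a log2 fold change of 1.11 (standard error 0.24, edgeR adjusted p = 0.00239). The libraries labelled p27KO had 5.04 and 6.05 CPM in PRO and 13.6 and 7.6 CPM in DIFF, a wide spread in DIFF, and their log2 fold change of 0.91 was called in the fit of all libraries (edgeR adjusted p = 0.0225) but not with the replicate block (0.86, adjusted p = 0.0558) or without replicate 1 of p27KO PRO (0.77) or of p27KO DIFF (0.42). Tfeb (ENSMUSG00000023990, chromosome 17, 47737030 to 47792419) had 4.27, 5.94 and 6.13 CPM in WT PRO, 7.07, 6.3 and 6.17 CPM in WT DIFF, 4.71 and 7.13 CPM in p27KO PRO and 5.79 and 5.44 CPM in p27KO DIFF. Although each WT DIFF library was above each WT PRO library, the log2 fold change of 0.24 (standard error 0.20) did not pass. Tfe3 (ENSMUSG00000000134, chromosome X, 7762560 to 7775202) had 48.6, 47.3 and 38.4 CPM, 58.0, 53.5 and 47.8 CPM, 37.0 and 44.4 CPM and 45.6 and 48.4 CPM in the same order of groups. Its WT libraries overlapped, and its log2 fold change of 0.24 (standard error 0.12, edgeR adjusted p = 0.11) passed only with the replicate block (0.24, adjusted p = 0.0285) and with that block and the p27KO numbers crossed (adjusted p = 0.0466). Activity of these factors is set largely by phosphorylation and location in the cell, which transcript counts do not show.

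Sqstm1 and Map1lc3b, the autophagy members, rose in both genotypes. Sqstm1 (ENSMUSG00000015837, chromosome 11, 50199366 to 50210827) encodes p62, which links ubiquitinated cargo to the autophagosome. It had 125, 127 and 123 CPM in WT PRO, 217, 187 and 187 CPM in WT DIFF, 137 and 131 CPM in p27KO PRO and 186 and 179 CPM in p27KO DIFF. The stages were apart, with log2 fold changes of 0.64 in WT and 0.43 in the libraries labelled p27KO (standard errors 0.07 and 0.09). Map1lc3b (ENSMUSG00000031812, chromosome 8, 121590361 to 121598760) encodes LC3B, which is attached to the lipid of the growing autophagosome. Its libraries had 86.7, 95.0 and 83.6 CPM in WT PRO, 175, 163 and 169 CPM in WT DIFF, 87.2 and 80.2 CPM in p27KO PRO and 135 and 143 CPM in p27KO DIFF. The rise was 0.92 in WT (standard error 0.07, edgeR adjusted p = 2.44e-06) and 0.71 in the libraries labelled p27KO (standard error 0.09, edgeR adjusted p = 9e-05), again without overlap.

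**Figure D2:**
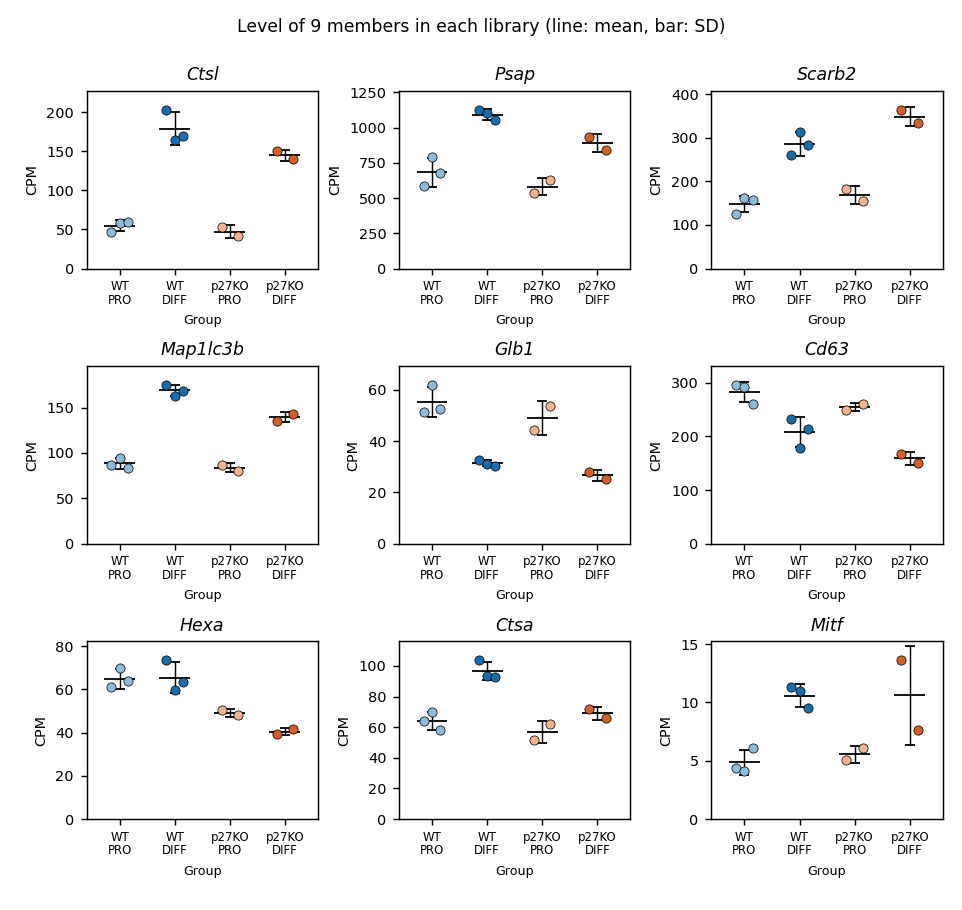
CPM of 9 members in each library (points), with the mean (line) and SD (bar) of each group of 3 WT or 2 p27KO libraries; axes start at 0. Ctsl, Psap, Scarb2 and Map1lc3b rose and Glb1 and Cd63 fell in both genotypes, the 2 p27KO DIFF libraries of Hexa (39.2 and 41.6 CPM) lie below all WT libraries, and those of Mitf are far apart (13.6 and 7.60 CPM).

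Members with the CLEAR core gave calls in both directions in WT. Of the 7, Ctsa, Ctsd and Atp6v0d1 were UP, Gla was DOWN, and Atp6v1a, Cln3 and Mcoln1 were not called, in a set where 44.4% of all members were UP and 13.3% DOWN (33.5% and 33.9% of all genes). Of the 14 with at least the E-box, 6 were UP, 2 were DOWN and 6 were not called. The other 14 UP members, Scarb2, Ppt1, Mitf, Sqstm1 and Map1lc3b among them, had no E-box in the promoters searched or, for Ctsb and Npc1, no promoter in the table.

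The stage change was then read in the libraries labelled p27KO. There, 13 members were UP and 8 were DOWN by edgeR's test, against 27.5% UP and 30.2% DOWN of all genes, which puts the members' UP share (28.9%) near that of all genes. Their median log2 fold change was -0.03, as was that of all genes. Its sign was not stable, since it was 0.08 without replicate 2 of p27KO PRO, with 17 instead of 23 members negative, 0.0055 without replicate 1 of WT DIFF, 0.0052 with only the p27KO groups in the fit and -0.09 without the filter. All 13 UP members were also UP in WT, and 5 of the 8 DOWN members were also DOWN there (Ctsh, Glb1, Asah1, Laptm4b and Cd63). The WT and p27KO groups differ in size, so that counts of calls are not directly comparable. The 7 members called UP only in WT were Ctsa, Ctsd, Tpp1, Npc1, Grn, Lamp1 and Atp6v0d1, of which 6 had a positive fitted change in the libraries labelled p27KO too, from 0.04 to 0.41, and Grn one of -0.03. Gusb, the beta-glucuronidase, Hexa and Fuca1, the alpha-fucosidase, were DOWN only in the libraries labelled p27KO, by 0.61, 0.31 and 0.32 on the log2 scale.

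Among members with the CLEAR core, p27KO PRO and p27KO DIFF had 51.6 and 61.8 CPM and 72.0 and 66.2 CPM for Ctsa, and 217 and 237 CPM and 264 and 284 CPM for Ctsd, neither of which overlapped. For Atp6v1a they had 212 and 161 CPM and 167 and 169 CPM, for Mcoln1 28.7 and 38.4 CPM and 29.6 and 27.5 CPM, and for Cln3 9.75 and 11.7 CPM and 9.95 and 10.8 CPM. These 3 overlapped between the stages, and none of the 5 was called.

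The calls in the libraries labelled p27KO were the less stable ones. Of the 13 UP members, 8 passed under every alternative, and of the 8 DOWN members, 3 did (Glb1, Laptm4b and Cd63). Without replicate 2 of p27KO DIFF, the count of DOWN members was 3, and the calls of Ctsh (-1.43), Gusb (-0.52), Hexa (-0.34), Fuca1 (-0.31) and Asah1 (-0.32) were lost, as was the UP call of Idua (0.53). Without replicate 1 of p27KO DIFF, Hexa (-0.27), Psap (0.50) and Lamp2 (0.35) lost theirs. Without replicate 1 of p27KO PRO, Hexa (-0.29), Psap (0.46) and Asah1 (-0.29) did, and without replicate 2 of p27KO PRO, Gusb (-0.52), Hexa (-0.32), Lamp2 (0.33) and Laptm4a (0.25) did. The call of Hexa was also lost with the replicate block (-0.31, adjusted p = 0.0578). Idua went from 9.46 and 8.95 CPM in p27KO PRO to 13.5 and 15.5 CPM in p27KO DIFF, Ids from 105 and 94.2 to 140.5 and 136 CPM, and Lamp2 from 286 and 235 to 384 and 338 CPM. None of these 3 overlapped between the stages. With 2 libraries per stage, 21 of the 45 members were higher in p27KO DIFF without overlap and 12 were lower. The matching share of all genes was not computed.

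**Figure D3:**
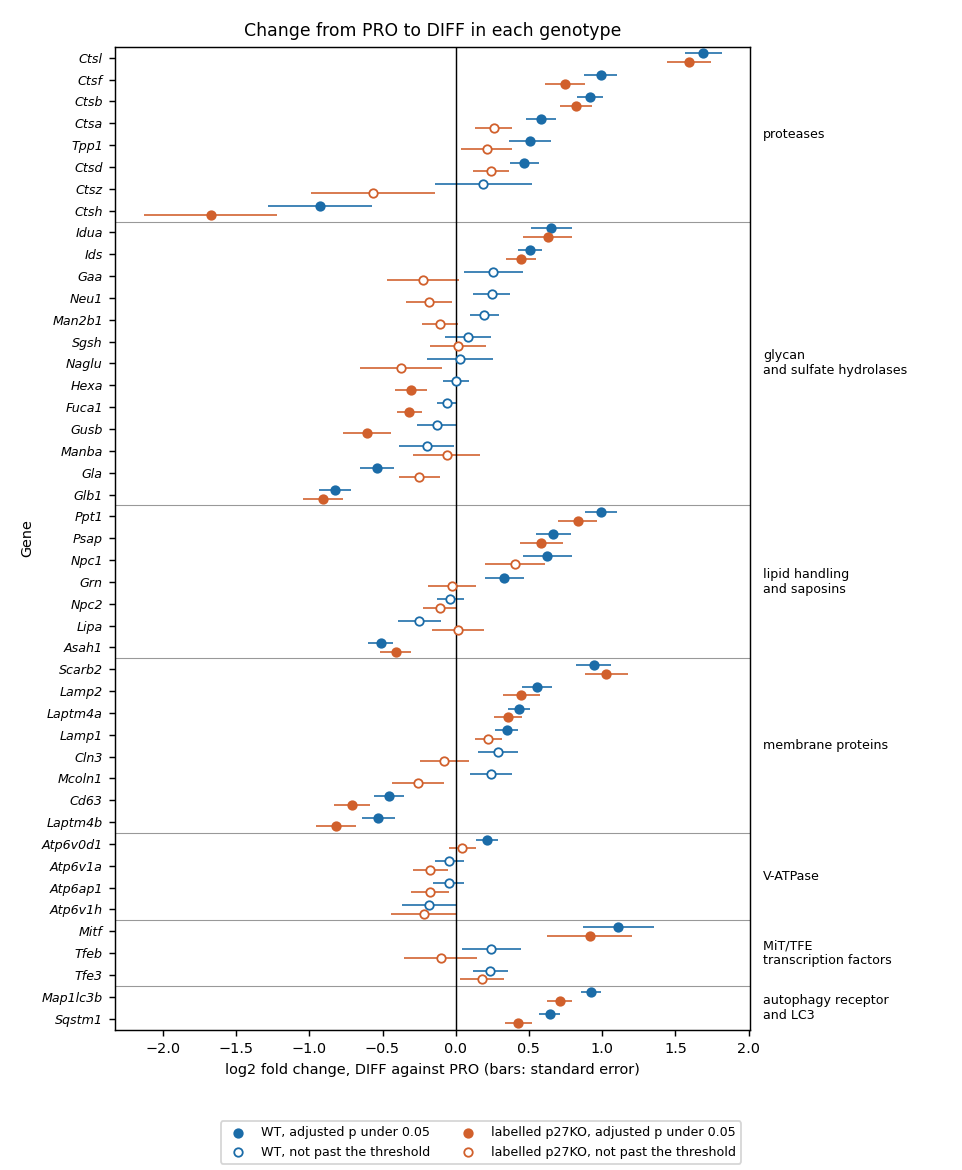
Log2 fold change from PRO to DIFF of each member (rows, by role) in WT (blue) and in the libraries labelled p27KO (orange), with standard errors as bars; filled points passed an adjusted p of 0.05. Ctsl has the largest rise in both (1.69 and 1.59), Ctsh the largest fall (-0.93 and -1.67), and most orange points lie left of the blue ones.

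The rest of the pathway was read from 5 lists of genes outside the 45. Of 29 tested hydrolases, 16 were UP and 5 were DOWN in WT (55.2% and 17.2%, against 33.5% and 33.9% of all genes), with a median log2 fold change of 0.63. In the libraries labelled p27KO, 12 were UP and 5 DOWN (41.4% and 17.2%, against 27.5% and 30.2% of all genes). Man2b2, an alpha-mannosidase, rose in both genotypes, with log2 fold changes of 2.01 (WT) and 1.62 (p27KO). Ctsc, the dipeptidyl peptidase cathepsin C, fell by 2.45, further than any of the 45, and Scpep1, a serine carboxypeptidase, by 0.74. In the libraries labelled p27KO, Ctsc fell by 2.42 and Scpep1 by 0.78.

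Autophagy genes rose most often. Of 46 tested, 32 (69.6%) were UP and 3 (6.52%) were DOWN in WT, with a median of 0.65, against 33.5% and 33.9% of all genes. In the libraries labelled p27KO, 29 (63.0%) were UP and 2 (4.35%) DOWN, with a median of 0.52, against 27.5% and 30.2% of all genes. Wipi1, which reads the lipid of the forming autophagosome, rose by 2.88 (standard error 0.15, edgeR adjusted p = 2.6e-07) in WT, the libraries labelled p27KO giving 2.73, and the autophagy receptor gene Calcoco1 by 1.58 and 1.33. Wipi1 had 11.8, 15.5 and 10.5 CPM in WT PRO and 90.1, 104 and 85.2 CPM in WT DIFF, with the stages far apart. Uvrag and Atg4d were the largest falls, at -0.64 and -0.60 in WT.

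The remaining lists moved both ways. Of 27 tested genes of the lysosomal membrane and of sorting, 8 were UP and 7 DOWN in WT (29.6% and 25.9%, against 33.5% and 33.9% of all genes). Among them were the ion channel genes Tpcn1 and Tmem175 (1.73 and 1.13) and, falling, Litaf and Igf2r, the receptor that sorts hydrolases by mannose 6-phosphate (-1.22 and -0.74). Of 15 further V-ATPase subunits, 5 were UP and 2 DOWN (33.3% and 13.3%), with a median of 0.0087. Atp6v0e2 and Atp6v0a2 rose by 0.39 and 0.35, and Atp6v0b and Atp6v1e1 changed by -0.33 and -0.29. Among 26 genes that control mTORC1 and TFEB, 7 were UP and 8 DOWN (26.9% and 30.8%), both shares below those of all genes. Sesn3, a Sestrin that restrains mTORC1, rose by 1.84 in WT and 1.72 in the libraries labelled p27KO, and Slc38a9, the lysosomal arginine sensor, by 1.41 and 1.21. Fnip2, a partner of folliculin, and Sesn2 fell in WT, by 1.18 and 0.66.

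**Figure D4:**
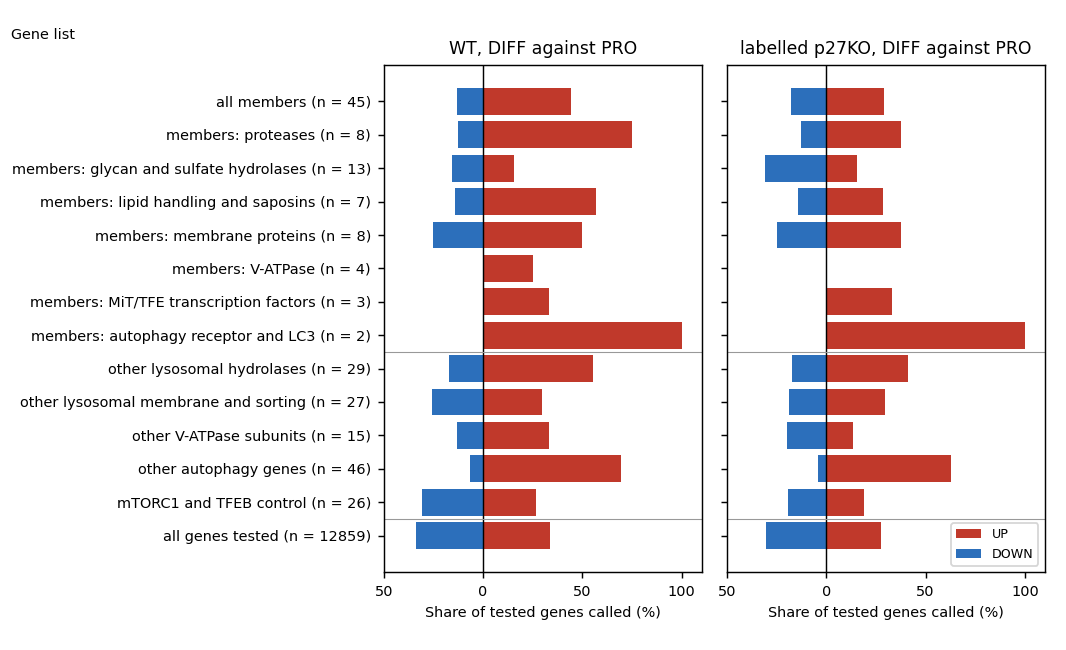
Share of the tested genes called UP (red, right of 0) and DOWN (blue, left of 0) from PRO to DIFF, in % of each list, for the 45 members, their 7 roles, 5 other pathway lists and all 12859 genes tested, in WT and in the libraries labelled p27KO. Among lists of over 10 genes, autophagy genes have the largest UP share (69.6% in WT, 63.0% in p27KO), whereas all genes are split almost evenly.

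Stage also changed the markers of cell identity. The summed level of 9 astrocyte markers was 1960 to 2100 CPM in WT PRO and 5430 to 6030 CPM in WT DIFF, and that of 10 oligodendroglial markers 1910 to 2440 CPM and 989 to 1230 CPM. In the libraries labelled p27KO, the astrocyte sum was 1820 to 2170 CPM in PRO and 5250 to 5470 CPM in DIFF. The 9 endothelial and mural markers summed to at most 21.5 CPM in any library, with Cdh5 and Cldn5 at 0 counts. The part of a shift in cell types in the changes of the members was not tested.

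The difference between genotypes was examined at each stage. At 2 + 1 DIV, a larger share of the members than of all genes lay lower in the libraries labelled p27KO, among them most proteases, glycan hydrolases and membrane proteins. In 33 of the 45, both p27KO DIFF libraries lay below all 3 WT DIFF libraries, against 20.4% of all genes tested, and in 2 (Gla and Scarb2) above them, against 17.0% of all genes. With TMM-scaled CPM the lower count was 29, against 19.2% of all genes. The fitted difference was negative for 36 members (80.0%, against 52.7% of all genes), with a median log2 fold change of -0.27 against -0.01 for the whole table. Leaving out single libraries, 36 to 39 members were negative and the median stayed between -0.29 and -0.20. Single genes rarely passed the adjustment. Only Hexa did in edgeR's test, against 2.04% of all genes called in either direction, while 21 of the 45 had an unadjusted p under 0.05, against 14.8% of all genes. DESeq2 called 5 members, Ctsa, Ctsf, Ctsz, Map1lc3b and Hexa, all lower, where it called 4.91% of all genes in either direction and 0.871% as lower.

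Hexa (ENSMUSG00000025232, chromosome 9, 59539540 to 59565109), whose loss causes Tay-Sachs disease in humans, had 61.0, 70.0 and 63.8 CPM in WT PRO, 73.4, 59.6 and 63.5 CPM in WT DIFF, 50.4 and 48.0 CPM in p27KO PRO and 39.2 and 41.6 CPM in p27KO DIFF. All 4 libraries labelled p27KO lay below all 6 WT libraries. The log2 fold change at 2 + 1 DIV was -0.68 (standard error 0.10, edgeR adjusted p = 0.00671), and in PRO it was -0.37 (standard error 0.10, edgeR adjusted p = 0.684). The call was lost without either p27KO DIFF library (-0.65 and -0.72, adjusted p = 0.1 and 0.0624) and with only both DIFF groups in the fit (-0.68, adjusted p = 0.0734). In WT, Hexa differed between stages by 0.0016 with a standard error of 0.09. Tmem202, which overlaps its exons on the other strand, had at most 0.316 CPM in any library.

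The proteases held the largest differences at this stage, negative for all 8, with a median of -0.40. In PRO their differences were negative for all 8 as well, with a median of -0.16 and a value of -0.75 for Ctsz. Ctsz, the carboxypeptidase cathepsin Z, had 10.4, 22.4 and 20.2 CPM in WT PRO, 31.1, 15.3 and 14.9 CPM in WT DIFF, 9.46 and 11.2 CPM in p27KO PRO and 7.41 and 6.79 CPM in p27KO DIFF. Its log2 fold change of -1.50 (standard error 0.40, edgeR adjusted p = 0.119) came without overlap, but the 3 WT DIFF libraries were themselves spread widely. Exons of Ctsz overlap those of Nelfcd on the other strand, which had 33.5 to 53.8 CPM and a difference of -0.09 in the same comparison. For Ctsa and Ctsf, p27KO DIFF had 72.0 and 66.2 CPM and 29.1 and 30.7 CPM, each below the WT DIFF levels given above, with log2 fold changes of -0.47 and -0.49 (standard errors 0.12 and 0.12, edgeR adjusted p = 0.0869 and 0.0924). Ctsf passed the threshold without replicate 2 of WT PRO (-0.49, adjusted p = 0.0464).

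Of the 13 glycan hydrolases, 10 had a negative difference, with a median of -0.32. Gaa, Gusb, Man2b1 and Neu1 were lower by 0.54, 0.41, 0.37 and 0.33 on the log2 scale, none past the adjustment. The membrane proteins Mcoln1 (29.6 and 27.5 CPM in p27KO DIFF) and Cln3 (9.95 and 10.8 CPM) lay below all WT DIFF libraries, with log2 fold changes of -0.46 and -0.40 that did not pass. Of the 7 members with the CLEAR core, 6 were lower without overlap and Gla was higher, beside 33 of all 45 members that were lower without overlap. Among the 9 members with a positive difference, Scarb2 was higher by 0.30 without overlap and Atp6v1h by 0.26 (standard error 0.20) with overlap. Ids, Laptm4a and Asah1 had differences of 0.01, 0.01 and 0.03 (standard errors 0.09, 0.09 and 0.10). The others were Gla, Lipa, Manba and Mitf. The 5 X-linked members ranged from -0.32 for Atp6ap1 to 0.23 for Gla, none past the adjustment. Sex and genotype cannot be told apart for these or for the other members.

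In neurospheres the counts were smaller. In PRO, 7 members were lower in the libraries labelled p27KO without overlap and 1 (Sqstm1) higher, against 10.9% and 6.94% of all genes, and with TMM-scaled CPM the counts were 3 and 1, against 7.70% and 9.05%. The median difference was -0.06, and it turned to 0.01 without replicate 2 of WT PRO, with 20 instead of 31 members negative. No member passed edgeR's or DESeq2's test in PRO, where 0.0156% of all genes did with edgeR. At an unadjusted p under 0.05 there was 1 member, Hexa, against 4.69% of all genes.

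**Figure D5:**
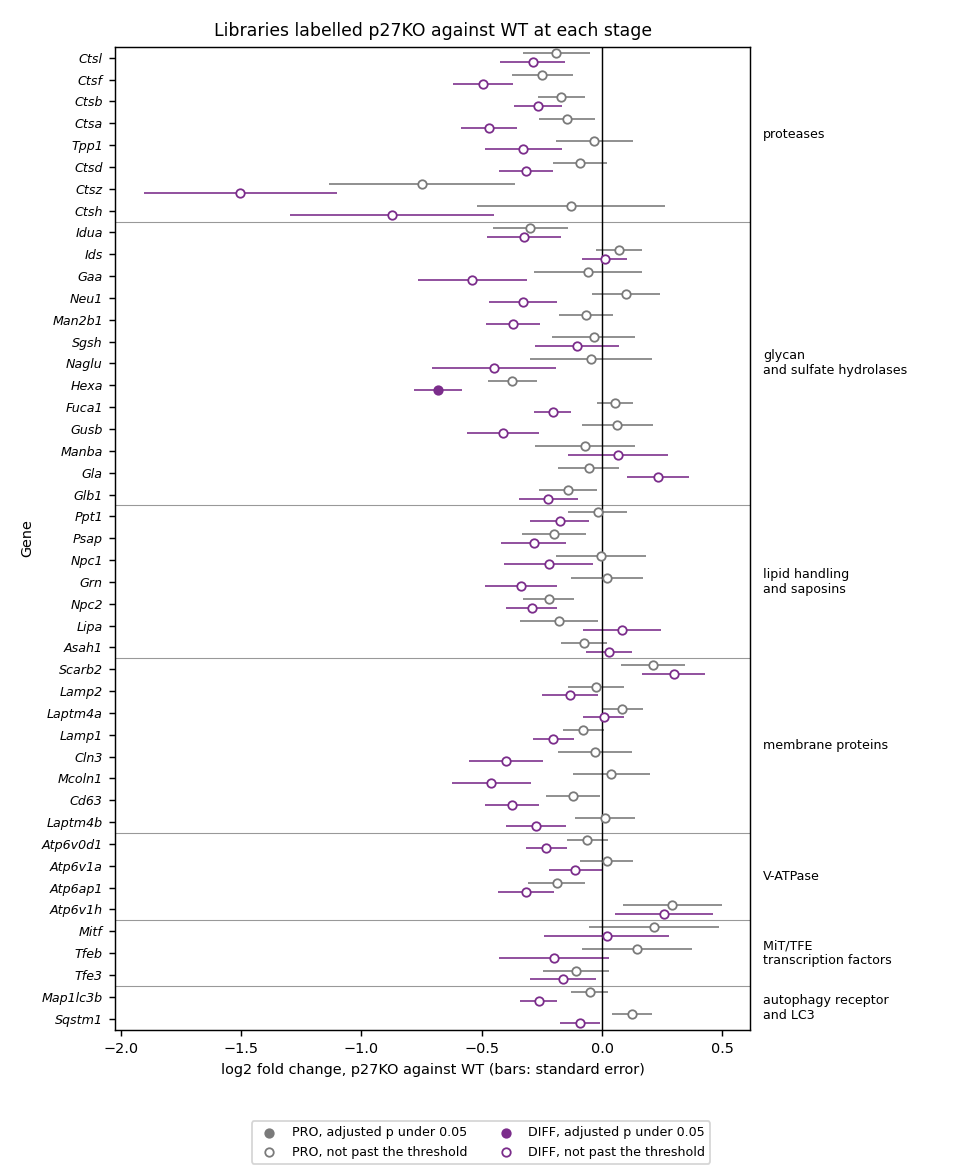
Log2 fold change of the libraries labelled p27KO against WT for each member (rows, by role) in PRO (grey) and in DIFF (purple), with standard errors as bars; filled points passed an adjusted p of 0.05. The DIFF values of 36 of 45 members lie below 0, with Ctsz (-1.50) lowest and Scarb2 (0.30) highest, and only Hexa in DIFF passed.

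Whether the stage change itself differed between genotypes was tested as the interaction, which uses the same libraries as the comparisons above. No member passed edgeR's test (0.389% of all genes did), and none passed with DESeq2. At an unadjusted p under 0.05 there were 2 members, Gusb (-0.48, standard error 0.21) and Fuca1 (-0.26, standard error 0.11), near the 4.31% of all genes. The fitted interaction was negative for 40 of the 45 members (51.8% of all genes), with a median of -0.20 against -0.0086 over all genes, a median between -0.24 and -0.12 and 32 to 40 negative members with each library left out. All 8 proteases, all 4 V-ATPase subunits, Tfeb, Tfe3, Mitf, Sqstm1 and Map1lc3b were among the 40. The 5 with a positive value were Gla (0.29), Lipa (0.26), Manba (0.14), Asah1 (0.10) and Scarb2 (0.09). For Ctsl the interaction was -0.10 with a standard error of 0.19, and for Ctsa -0.32 with a standard error of 0.16. Beside these values, 8 neuronal markers summed to 1500 to 1740 CPM in WT DIFF and 2020 to 2160 CPM in p27KO DIFF. Nearly all of that sum was Map2, whose interaction was 0.04 (standard error 0.17). In PRO the sum was 1240 to 1510 CPM in WT and already 1530 to 1870 CPM in p27KO. Of the 7 neuronal markers tested, 5 had a negative fitted difference between genotypes in DIFF, with a median of -0.06. The stem and progenitor markers summed to 5370 to 6620 CPM in WT DIFF and 6770 to 6800 CPM in p27KO DIFF. The 10 oligodendroglial markers summed to 989 to 1230 CPM in WT DIFF and 880 to 919 CPM in p27KO DIFF, without overlap, and the 6 of them that were tested all had negative fitted values, with a median of -0.39 between genotypes in DIFF and -0.29 in the interaction, none past the adjustment. Their part in the differences of the members was not tested.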

How the data were processed

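RNA-seq was carried out on 10 libraries. According to the study's methods and the labels, the authors amplified cDNA with the Ovation RNA-seq System V2, used STAR for alignment to the mouse transcriptome of Ensembl, and RSEM for counting by gene. They deposited whole-number estimated counts without normalization. Whether strand was used in counting is not given in the sources used here. Of the 45 members, 16 overlap exons of another gene. These are Ctsa, Ctsb, Ctsd, Ctsz, Glb1, Hexa, Idua, Sgsh, Npc1, Ppt1, Grn, Lamp1, Cln3, Atp6v1h, Sqstm1 and Map1lc3b. The 48795 identifiers were matched to GENCODE M21 (GRCm38) symbols (48435 matched).

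Following the methods, a gene was dropped when 4 or more libraries had under 1 CPM. TMM factors scaled the libraries, and a model of the 4 groups was fitted in edgeR 4.0.16 (robust quasi-likelihood F test, two-sided) in R 4.3.3, with Benjamini-Hochberg adjustment across the 12859 genes tested (threshold 0.05). CPM values are not TMM-scaled unless stated. With 2 or 3 libraries per group, their spread limits precision more than counting error does. All replicates differed by more than sampling noise. The fit was tested on simulated counts. Tables and plots used Python with pandas and matplotlib.

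The 45 members and the gene lists were chosen with earlier results of these data known. Values in every library are given for members that passed a genotype or interaction test, for the 2 largest rises and 2 largest falls past the threshold of each role in WT, for Tfeb, Tfe3, Mitf, Sqstm1 and Map1lc3b, and for members with the CLEAR core. Ctsz, and the members named for a lost or differing call, were added after their values were seen. Of the other lists, the 2 largest rises and falls in WT with a mean of at least 10 CPM are named, except 1 that is not reported here. One listed gene, Tmem55b, was not matched by symbol. Windows were printed for more promoters than planned, to cover all 7 members with the core. Alternatives were DESeq2 1.42.0, its size factors in edgeR, no filter, a looser filter (1 CPM or more in 4 libraries), only the groups compared, the replicate number as a block, and each library left out. Same-numbered WT libraries of both stages deviated from their group means together across genes (correlations of 0.248, 0.301 and 0.395, against -0.221 to -0.0874 for different numbers), while those labelled p27KO correlated at -0.138. Same-numbered libraries of a genotype were treated as pairs only with the replicate block. The main fit, which gave the reported values and calls, did not use this pairing. Neither labels nor methods say what the numbers mark.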

Additional observations from a re-analysis of the deposited data

How the results depend on the processing

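The block with crossed p27KO numbers was an alternative chosen after seeing the data. The counts of members called moved by over 1.5 times in the comparison of genotypes in DIFF, where 5 members were DOWN with DESeq2 and 0 with only the groups compared, and 0 to 2 with each library left out, against 1 as reported, and in the libraries labelled p27KO, where 3 to 8 members were DOWN with each library left out, against 8. With the replicate block, 19 members were UP and 6 DOWN in WT, 13 and 7 in the libraries labelled p27KO, and 1 was DOWN in DIFF. For the genotype comparison, the block joined same-numbered libraries of both genotypes, although nothing says that these numbers correspond. Beside the calls named in the report, the block within each genotype changed that of Ctsd, which was gained in the libraries labelled p27KO (0.25). With the p27KO numbers crossed, 20 members were UP and 6 DOWN in WT, and 13 and 7 in p27KO. The change of Hexa in WT, close to 0, turned to -0.0791 without the filter, to -0.038 with the looser filter, to -0.0009 with the replicate block and to -0.001 with the crossed block, and was between -0.0587 and 0.0549 with each library left out. The change of Atp6v0d1 in p27KO was -0.0232 without the filter, and that of Tfeb in p27KO lay between -0.39 and 0.25 with each library left out. Scaling with DESeq2's size factors changed no count of members by more than 1. Lamp1, Npc1, Ctsa and Atp6v1a in p27KO and Manba in WT gained a call without a single library or with another setting. Calls that rested on single libraries were found for low members (Ctsh, 6.58 CPM in WT PRO) and abundant ones (Psap in p27KO), and the part of depth in them was not tested.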
